A study of Mus musculus with 8 samples.

Results

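The interferon response and antigen presentation genes of the liver were drawn from the array annotation by their symbols. The interferon members were the genes named Ifi, Ifit, Ifitm, Oas, Gbp, Irf, Isg, Mx, Stat2, Usp18 or Rsad2. The antigen presentation members were the genes whose symbols start with H2-, the mouse major histocompatibility complex, with B2m, Cd74, Psmb8, Psmb9, Psmb10, Tap1 and Tap2. Each gene was represented by its probe set of highest mean over the 8 arrays, a choice that does not use the diet. The rule found 89 genes of 18193 with a named probe set, 59 interferon and 30 antigen presentation members, and these genes have 142 of the 45037 probe sets tested. Another 25 probe sets matched only together with a second symbol and were not used. Isg15 and Ifi44 were not analysed here. The patterns also drew 5 genes by their letters alone, Irf2bp1, Irf2bp2, Irf2bpl, Isg20l2 and H2-Ke6, which are counted but described apart.

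Interferons are secreted when cells sense viruses or other danger signals, and their receptors act through JAK kinases and STAT factors on genes that carry an interferon-stimulated response element (ISRE) or a gamma-activated site (GAS). Class I molecules display peptides made by the proteasome and pumped by the TAP transporter, and nearly all cells, hepatocytes included, carry them. Class II molecules display peptides taken up from outside, with Cd74 as their chaperone, and in the liver they are known mainly from Kupffer cells, dendritic cells and B cells. Interferon gamma induces both arms and the guanylate-binding proteins.

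Liver RNA was measured on Affymetrix mouse arrays in 8 male KK-Ay/TaJcl mice, a strain with obesity and type 2 diabetes, at 14 weeks of age. The 4 control (CD) mice had eaten the AIN93G diet, and the 4 PD mice the same diet with 1 g/kg of a fat-soluble persimmon peel (PP) extract, for 8 weeks. Both groups thus share the strain, the sex and the base diet, and no lean or infected mice are among them. Per the methods, the livers were those of mice with plasma ketone bodies near the average of their group. Array medians lay between 7.09 and 7.16, and hepatocyte markers were bright in every mouse, with Alb at a log2 value between 14.68 and 14.76. In whole liver, fewer cells of a type and less RNA per cell cannot be told apart. Values are log2 expression indices as deposited, and differences are PD minus CD on that scale. Values of different probe sets cannot be ranked against each other, so only values of the same gene between mice are compared.

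Between the diets the median difference of the interferon response and antigen presentation genes was close to 0. Of the 59 interferon members 35 were higher and 24 lower on average in PD mice, with a median difference of 0.02 and a range from −0.53 to 0.28. Of the 30 antigen presentation members 19 were higher and 11 lower, with a median of 0.01 and a range from −0.09 to 0.27. Over all genes 46.5% were higher and the median was −0.01. The 2 classes thus lay side by side, and no test of the members as a set was made. Absolute differences above 0.2 were found for 3 interferon and 2 antigen presentation members, 5.62% of all members against 2.76% of all genes, and the members also varied more than other genes within a diet, as given further on.

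Gene by gene, few members were called. The rank product orders all probe sets by the ratio of a PD to a CD array, combines the orders of the 16 possible pairs, and calls a gene at a false discovery rate (FDR) under 0.1. It called 1 of 89 members as higher in PD mice, H2-Aa, where 0.28% of all genes were called in that direction. It called 1 as lower, Irf2bp2, where 0.357% of all genes were. Limma, which sets each difference against the spread between mice, called 0 members, as the smallest adjusted p was 0.998 (threshold 0.1). Limma also called 0 of all 18193 genes, so this count is not particular to the members. It gave an unadjusted p under 0.05 to 2 members, Gbp7 and Isg20l2, that is 2.25%, against 4.24% of all genes. The 4 PD values lay apart from the 4 CD values for 1 member in the higher direction, H2-M3, and for 0 in the lower, where 1.12% and 1.03% of all genes did so. All of these counts are small. In the families described next, higher and lower give the direction of a mean and are no calls.

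**Figure D1:**
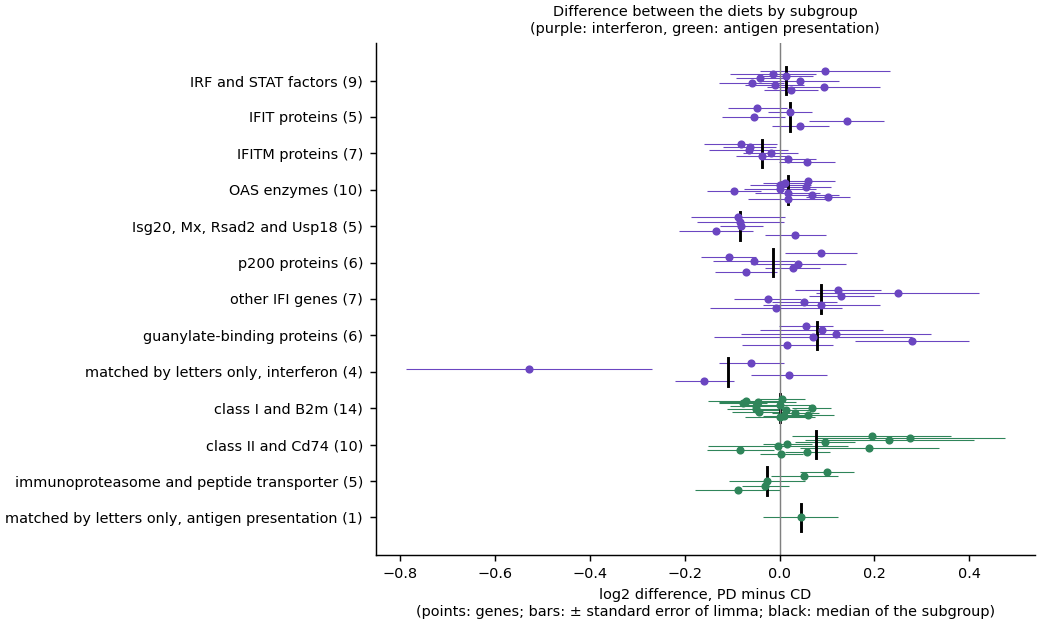
Difference between the diets for each of the 89 members, grouped by gene family (vertical axis, number of genes in brackets), on the log2 scale (horizontal axis, PD minus CD). Points are genes, bars are ± 1 standard error of limma, black marks are family medians, and all members lie between −0.16 and 0.28 except Irf2bp2 at −0.53.

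The transcription factors of the pathway did not pass the tests. Of 9 IRF and STAT members 5 were higher and 4 lower in PD mice, with a median of 0.01 and a range from −0.06 to 0.10. Irf1, the factor that interferon gamma induces first, was 9.01, 8.99, 9.57 and 9.26 in CD replicates 1 to 4 and 9.61, 9.10, 9.30 and 9.20 in PD replicates 1 to 4. CD replicate 3 and PD replicate 1 were high, CD replicates 1 and 2 were low, and the groups overlapped. The mean difference of Irf1 was 0.10 (standard error 0.14). Irf9, the DNA-binding subunit of the ISGF3 complex, was 6.98, 7.09, 7.65 and 7.26 in CD and 7.39, 7.26, 7.32 and 7.39 in PD mice. CD replicate 3 was the highest mouse and CD replicate 1 the lowest, and the difference was 0.09 (standard error 0.12). Stat2, the partner of Irf9, differed by 0.02 (standard error 0.06). Irf7, which drives type I interferon genes, differed by −0.06 (standard error 0.07), Irf3 by 0.01 (standard error 0.06) and Irf8, a factor of myeloid cells, by −0.01 (standard error 0.06).

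The promoters of the members differed by class and by family in the motifs they hold. RefSeq promoters of 300 bases, 250 before to 50 after the transcription start (GRCm38.p6), were matched for 68 of the 89 members, 47 interferon and 21 antigen presentation genes. Cd74, Gbp6, Gbp8, H2-Ab1, H2-Bl, H2-D4, H2-Ea, H2-Q5, H2-T18, H2-T24, Ifi204, Ifi27, Ifi27l2a, Ifi27l2b, Mx1, Mx2, Oas1b, Oas1e, Oas2, Tap2 and Usp18 were not among them. The ISRE core, searched as GAAANNGAAA on both strands, was found in 19 of 47 interferon promoters (40.4%) and in 1 of 21 antigen presentation promoters, that of B2m, while 3.99% of all 27025 genes with a promoter hold it. By family it was found for 4 of 4 guanylate-binding proteins, 4 of 5 IFIT genes, 3 of 5 p200 genes and 3 of 7 OAS genes. It was rarer in the other families, with 2 of 7 IFITM genes, 2 of 9 IRF and STAT factors, 1 of 2 antiviral effectors, 0 of 4 other IFI genes and 0 of 4 genes drawn by letters alone. The Y box of class II and related genes, searched as CTGATTGG on both strands, was found for 10 of 21 antigen presentation members (47.6%), 1 of 47 interferon members and 4.70% of all genes. The GAS, searched as TTCNNNGAA, was found for 12 interferon and 3 antigen presentation members and for 9.55% of all genes. These are matches of letters, and a promoter without one lacks these letters in this window only. These counts describe the genes and use no array value.

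The 250 bases before the start are shown for Irf1 and 3 guanylate-binding proteins, since this family had the widest spread between mice of the interferon families. Gbp2b and Gbp3 varied with Irf1, while for Gbp7 that relation did not pass its test. Capitals mark motif matches. In Irf1 they mark a GAS that begins 90 bases before the start. In Gbp2b they mark an ISRE at 137 bases, and in Gbp3 a pair of overlapping ISRE matches at 45 and 39 bases. In Gbp7 they mark GAS matches at 106 and 87 bases and an ISRE at 53 bases. The ISRE letters of the 3 Gbp genes lie on the opposite strand, so the core reads TTTCNNTTTC here.
Irf1, chr11:53769764-53770013, plus strand: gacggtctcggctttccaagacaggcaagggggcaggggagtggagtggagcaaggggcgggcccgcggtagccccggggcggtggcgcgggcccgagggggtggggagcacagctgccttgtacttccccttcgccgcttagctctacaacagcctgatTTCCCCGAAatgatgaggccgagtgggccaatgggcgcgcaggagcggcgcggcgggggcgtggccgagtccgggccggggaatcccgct
Gbp2b, chr3:142594597-142594846, plus strand: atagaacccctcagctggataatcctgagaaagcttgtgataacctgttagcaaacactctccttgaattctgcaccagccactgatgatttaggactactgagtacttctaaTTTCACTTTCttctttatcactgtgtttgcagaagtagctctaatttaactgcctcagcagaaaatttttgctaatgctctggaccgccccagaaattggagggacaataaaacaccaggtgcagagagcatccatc
Gbp3, chr3:142559794-142560043, plus strand: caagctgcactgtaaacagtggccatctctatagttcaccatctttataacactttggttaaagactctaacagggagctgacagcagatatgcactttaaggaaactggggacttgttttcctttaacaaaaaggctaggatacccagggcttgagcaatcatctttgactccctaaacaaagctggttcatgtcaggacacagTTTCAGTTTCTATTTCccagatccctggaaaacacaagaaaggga
Gbp7, chr3:142530086-142530335, plus strand: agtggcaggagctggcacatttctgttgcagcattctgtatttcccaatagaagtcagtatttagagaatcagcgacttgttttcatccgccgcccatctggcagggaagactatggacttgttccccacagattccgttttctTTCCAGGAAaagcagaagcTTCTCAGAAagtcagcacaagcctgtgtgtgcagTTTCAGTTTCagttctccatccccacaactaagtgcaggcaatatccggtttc

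The guanylate-binding proteins, GTPases that attack the compartments of pathogens inside cells, were the interferon family with the widest spread between mice. By the probe set used for each gene, all 6 measured genes were higher on average in PD mice. The median difference was 0.08 and the range from 0.02 to 0.28, and the rank product called 0 of them. Gbp7 was 7.78, 8.07, 8.47 and 8.24 in CD replicates 1 to 4 and 8.41, 8.55, 8.39 and 8.32 in PD replicates 1 to 4. CD replicates 1, 2 and 4 lay below every PD mouse, and CD replicate 3 lay within the PD range. The difference of Gbp7 was 0.28, or 1.21-fold (standard error 0.12, limma, unadjusted p = 0.0414, adjusted p = 0.998). Its second probe set differed by 0.25 (standard error 0.08). The unadjusted p of Gbp7 was above 0.05 when CD replicate 1 (difference 0.16) or CD replicate 2 (0.26) or any of PD replicates 1 to 3 (0.28, 0.23 and 0.29) was left out, and after array median centring (0.29, unadjusted p = 0.0511), where Isg20l2 and Oasl1 had one under 0.05.

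Gbp3 was 6.58, 6.57, 7.65 and 7.07 in CD and 7.26, 6.95, 7.02 and 7.12 in PD mice. CD replicate 3 was the highest mouse and CD replicates 1 and 2 were the lowest, so the CD values spanned the PD values on both sides. The difference of Gbp3 was 0.12 (standard error 0.20). Gbp6 was 7.85, 7.72, 8.66 and 8.10 in CD and 8.55, 7.71, 8.09 and 8.27 in PD mice. Here CD replicate 3 and PD replicate 1 were high and PD replicate 2 was as low as CD replicate 2, with a difference of 0.07 (standard error 0.21). The second probe set of Gbp6 had the other sign, with a difference of −0.06. Gbp2 (0.06), Gbp2b (0.09) and Gbp8 (0.02) also differed by less than their standard errors. The mean of the 6 genes, as a deviation from the mean of the 8 mice, was −0.31 and −0.26 in CD replicates 1 and 2 and 0.34 in CD replicate 3, against −0.03 to 0.21 in the PD mice. The standard deviation was larger in CD than in PD mice for 6 of the 6 genes. The median of the 6 differences was −0.01 or 0.00 when CD replicate 1 or 2 was left out, and 0.24 when CD replicate 3 was. Leaving out PD replicate 1 gave 0.03, and PD replicate 2 gave 0.13.

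**Figure D2:**
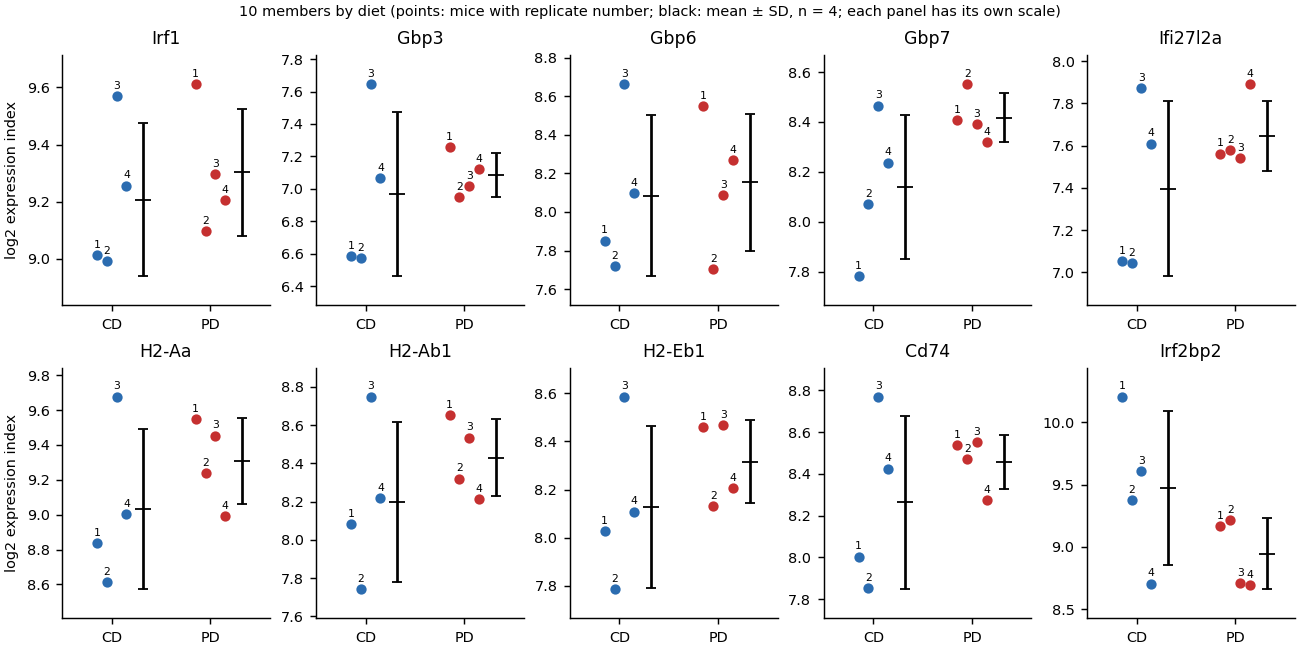
Log2 expression index (vertical axes, a scale for each panel) of 10 members in the 4 CD (blue) and 4 PD (red) mice. Points are mice with their replicate number and black bars are the mean ± SD, and in Gbp3, H2-Aa, H2-Ab1, H2-Eb1 and Cd74 CD replicate 3 is the highest of the 8 mice and CD replicate 2 the lowest.

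The other interferon families differed between the diets by small amounts. Of 5 IFIT genes, which bind foreign RNA, 3 were higher, with a median of 0.02. Ifit2 was 6.78, 6.73, 7.06 and 6.96 in CD and 7.00, 6.91, 7.04 and 7.15 in PD mice. CD replicates 1 and 2 were the lowest mice and the groups overlapped, with a difference of 0.14 (standard error 0.08, limma, unadjusted p = 0.102). Ifit1 differed by −0.05 (standard error 0.06) and Ifit3 by 0.04 (standard error 0.06). Of 10 OAS genes, a family that includes enzymes activating RNase L, 9 were higher but the median was 0.02 and the range −0.10 to 0.10. Oasl1 was 7.50, 7.52, 7.58 and 7.51 in CD and 7.57, 7.58, 7.69 and 7.67 in PD mice. Only CD replicate 3 overlapped the PD mice, and the difference was 0.10 (standard error 0.05, limma, unadjusted p = 0.0535). Of 7 IFITM genes, a family that includes proteins blocking the entry of viruses, 2 were higher, with a median of −0.04. Ifitm3 differed by −0.02 (standard error 0.06). Of 6 p200 genes, sensors of DNA, 3 were higher, with a median of −0.01.

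The antiviral effectors Isg20, Mx1, Mx2 and Rsad2 had a lower mean in PD mice and Usp18, the enzyme that removes ISG15 from proteins, was higher, with a median over the 5 of −0.08 and with 0 called. Rsad2, the radical enzyme viperin, was 8.09, 8.17, 8.07 and 8.36 in CD and 8.16, 8.12, 7.95 and 7.92 in PD mice. CD replicate 4 was the highest mouse, and the difference was −0.13 (standard error 0.08, limma, unadjusted p = 0.112). CD replicate 4 was the highest of the 8 mice in 4 of the 5 genes, and the mean deviation of the 5 was 0.20 there against −0.05 to 0.02 in the other 7 mice. Of 7 other IFI genes 5 were higher, with a median of 0.09. Ifi27l2a was 7.05, 7.04, 7.87 and 7.61 in CD and 7.56, 7.58, 7.54 and 7.89 in PD mice. CD replicates 1 and 2 stood below all other mice, CD replicate 3 and PD replicate 4 were the highest, and the difference was 0.25 (standard error 0.17). Ifi47, a GTPase induced by interferon gamma, differed by −0.01 (standard error 0.14), with PD replicate 4 the highest and PD replicate 2 the lowest mouse.

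**Figure D3:**
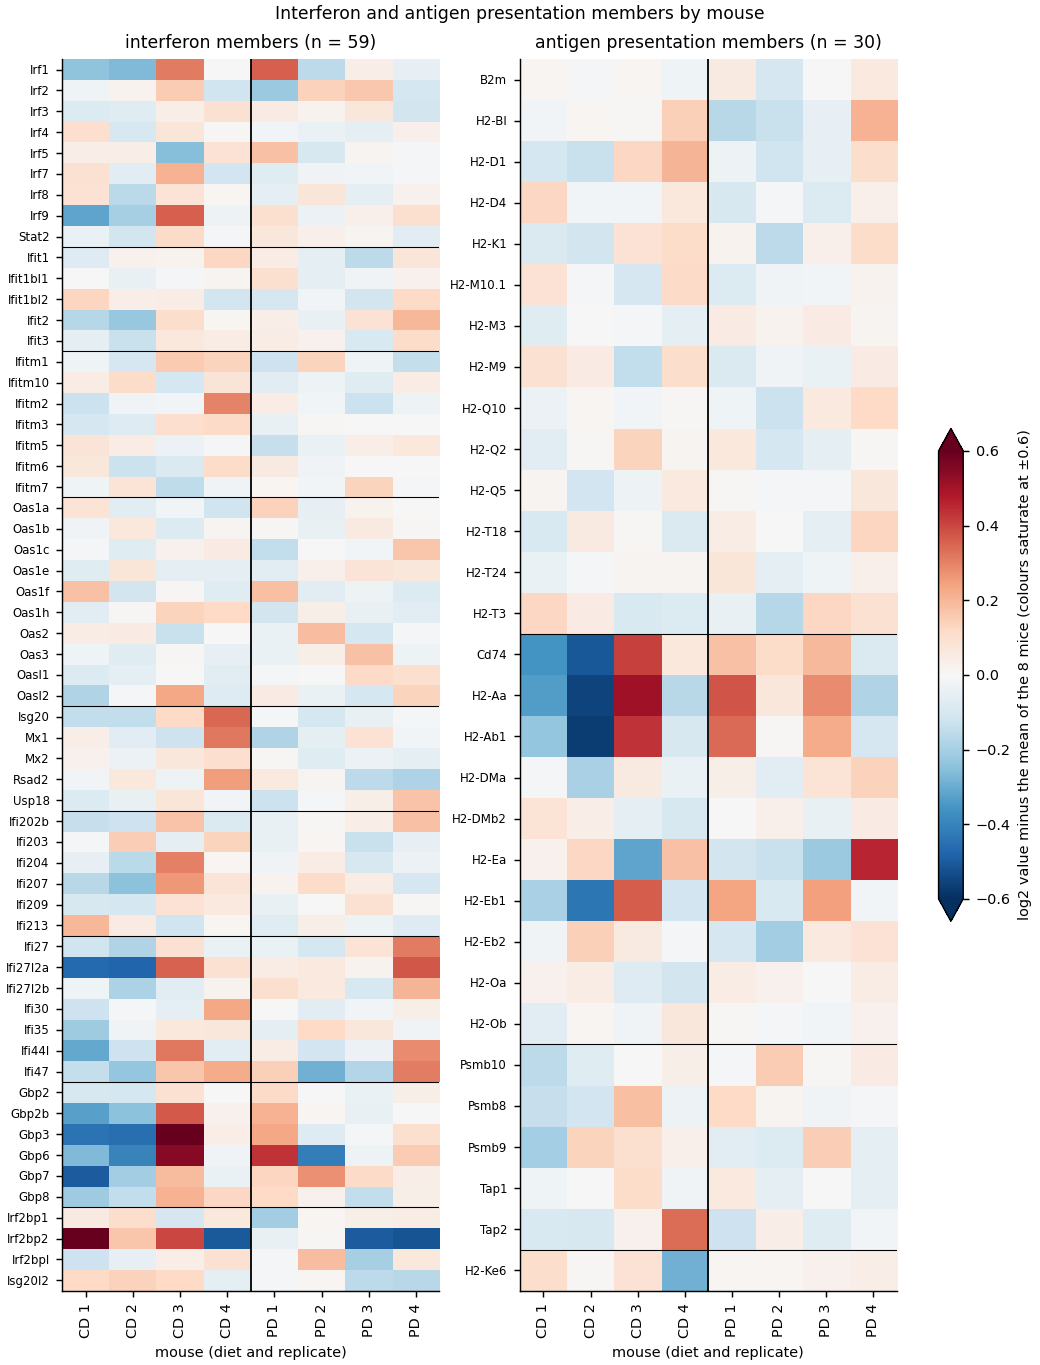
Each of the 59 interferon and 30 antigen presentation members (rows, horizontal lines between families) in each mouse (columns, CD left and PD right of the vertical line), coloured by its log2 value minus the mean of the 8 mice. Red is higher and blue lower, and the guanylate-binding proteins and 4 class II genes are blue in CD replicates 1 and 2 and red in CD replicate 3.

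Among the antigen presentation members the class II genes differed most between mice. The promoters of H2-Aa and H2-Eb1 are shown here because the antigen presentation members that varied most are class II genes. The capitals mark the Y box, which begins 51 and 62 bases before the start.
H2-Aa, chr17:34287824-34288073, minus strand: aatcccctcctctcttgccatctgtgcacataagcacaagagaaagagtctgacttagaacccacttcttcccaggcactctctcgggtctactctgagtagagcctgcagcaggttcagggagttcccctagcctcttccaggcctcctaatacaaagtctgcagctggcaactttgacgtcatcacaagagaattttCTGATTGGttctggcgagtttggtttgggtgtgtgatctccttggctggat
H2-Eb1, chr17:34305617-34305866, plus strand: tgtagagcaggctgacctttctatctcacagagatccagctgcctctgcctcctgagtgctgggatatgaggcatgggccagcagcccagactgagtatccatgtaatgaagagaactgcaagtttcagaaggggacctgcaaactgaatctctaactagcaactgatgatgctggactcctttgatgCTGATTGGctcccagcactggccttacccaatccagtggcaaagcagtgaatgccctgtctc

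Of the 10 class II members, Cd74 included, 8 were higher on average in PD mice, with a median difference of 0.08 and a range from −0.08 to 0.27. H2-Aa, the α chain of the I-A molecule, was 8.84, 8.61, 9.68 and 9.002 in CD replicates 1 to 4 and 9.55, 9.24, 9.45 and 8.99 in PD replicates 1 to 4. CD replicate 3 was the highest mouse, CD replicates 1 and 2 were the lowest, and the groups overlapped. H2-Aa was called by the rank product with a difference of 0.27, or 1.21-fold (standard error 0.20, FDR = 0.0993), next to the threshold, and the two-sided exact permutation test over the mice gave p = 0.343. The other 3 probe sets of H2-Aa differed by 0.29, 0.16 and 0.12 and were not called. Leaving out CD replicate 1 or 2 ended the call (differences of 0.21 and 0.13), as did leaving out any PD mouse (0.19, 0.30, 0.23 and 0.38), and without CD replicate 3 the difference was 0.49. It was also lost after quantile normalization of the arrays, with dim probe sets left out and at an FDR under 0.05.

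H2-Ab1, the β chain of I-A, was 8.08, 7.74, 8.75 and 8.22 in CD and 8.65, 8.32, 8.53 and 8.21 in PD mice. The same CD mice stood at both ends, and the difference was 0.23 (standard error 0.18). H2-Eb1, the β chain of I-E, was 8.03, 7.79, 8.59 and 8.11 in CD and 8.46, 8.13, 8.47 and 8.21 in PD mice, with a difference of 0.19 (standard error 0.15). Cd74, the invariant chain that guides class II molecules to endosomes, was 8.00, 7.85, 8.77 and 8.43 in CD and 8.54, 8.47, 8.55 and 8.27 in PD mice, with a difference of 0.19 (standard error 0.17). In all 4 of these genes CD replicate 2 was the lowest and CD replicate 3 the highest of the 8 mice. The remaining class II genes did not follow them. H2-Ea, the α chain of I-E, was 9.01, 9.11, 8.67 and 9.16 in CD and 8.88, 8.85, 8.76 and 9.45 in PD mice. Its lowest mouse was CD replicate 3 and its highest PD replicate 4, and the difference was 0.00 (standard error 0.15). H2-DMa, which helps to load peptides, differed by 0.10 (standard error 0.06), and H2-Oa and H2-Ob, which restrain that step, by 0.06 (standard error 0.05) and 0.00 (standard error 0.04). Several of these probe sets carry a suffix for possible detection of more than 1 transcript. With such probe sets left out the class II median was 0.00, but over fewer genes. Only 68 of the 89 members then had a value, and H2-Aa and Cd74 were not among them.

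By the probe set used for each gene, the class I and peptide supply genes differed between the diets by 0.10 or less. Of these genes 0 were called. Of 14 class I members 8 were higher and 6 lower, with a median of 0.00 and a range from −0.08 to 0.07. B2m, the light chain of class I, lay between 13.61 and 13.65 in CD and between 13.54 and 13.70 in PD mice. The values overlapped, with a difference of 0.01 (standard error 0.05). H2-K1 and H2-D1, the classical heavy chains, differed by 0.00 (standard error 0.07) and −0.05 (standard error 0.08). Their probe sets had both signs, from −0.07 to 0.10 over the 4 of H2-K1 and from −0.19 to 0.14 over the 9 of H2-D1. H2-M3, which presents formylated peptides, was 8.06, 8.13, 8.13 and 8.07 in CD and 8.18, 8.15, 8.18 and 8.15 in PD mice. Every PD mouse lay above every CD mouse, but the difference was 0.07, or 1.05-fold (standard error 0.04). It was the single member with groups that did not overlap, so its separation is a description.

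Of the 5 members for the immunoproteasome and the TAP transporter 2 were higher, with a median of −0.03. Psmb10, a catalytic subunit of the immunoproteasome, was 9.004, 9.09, 9.16 and 9.20 in CD and 9.15, 9.31, 9.17 and 9.21 in PD mice, with a difference of 0.10 (standard error 0.06). The other subunits Psmb8 and Psmb9 differed by 0.05 (standard error 0.07) and −0.03 (standard error 0.08). Tap1 and Tap2, the chains of the peptide pump, differed by −0.03 (standard error 0.05) and −0.09 (standard error 0.09).

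The genes drawn by their letters alone held the largest difference of all 89. Irf2bp2, a corepressor that binds IRF2, was 10.21, 9.37, 9.61 and 8.70 in CD and 9.17, 9.22, 8.71 and 8.69 in PD mice. CD replicate 1 was far above the rest, while CD replicate 4 lay with the low PD mice. By the rank product Irf2bp2 fell by 0.53 (log2, standard error 0.26, FDR = 0.0129), and the two-sided exact permutation test gave p = 0.171. Its other 3 probe sets differed by −0.21, −0.17 and −0.05 and were not called. The call was lost without CD replicate 1 (−0.28) or CD replicate 3 (−0.48). Isg20l2, a nuclease of ribosome assembly, was 8.34, 8.36, 8.34 and 8.16 in CD and 8.21, 8.24, 8.06 and 8.06 in PD mice. CD replicate 4 alone overlapped the PD mice, and the difference was −0.16 (standard error 0.06, limma, unadjusted p = 0.0278, adjusted p = 0.998). Its unadjusted p was above 0.05 with any of CD replicates 1 to 3 left out (−0.15, −0.14 and −0.15) and with PD replicate 3 or 4 left out (both −0.13). H2-Ke6, a steroid dehydrogenase encoded among the class II genes, differed by 0.04 (standard error 0.08).

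The members also varied between mice of the same diet. The median standard deviation within a diet was 0.107 over the members and 0.0845 over all genes, and it was 0.225 for the guanylate-binding proteins and 0.189 for class II. The standard deviation was larger in CD than in PD mice for 71.9% of the members and 52.3% of all genes. CD replicate 3 was the highest mouse for 20 of 89 members (22.5%), against 9.02% of all genes. CD replicate 1 or 2 was the lowest mouse for 44 of 89 (49.4%), against 23.0% of all genes. The mean deviation of the interferon members was −0.06, −0.08, 0.09 and 0.03 in CD replicates 1 to 4 and that of the antigen presentation members −0.06, −0.08, 0.06 and 0.01. In PD replicates 1 to 4 they were 0.02, −0.01, −0.02 and 0.03 for interferon and 0.03, −0.04, 0.03 and 0.05 for antigen presentation members. By these class means CD replicate 2 was thus the lowest and CD replicate 3 the highest mouse in both classes. Not every family followed. Class I was lowest in PD replicate 2 (−0.07) and highest in PD replicate 4 (0.07), and the IFITM genes were highest in CD replicate 4 (0.10).

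**Figure D4:**
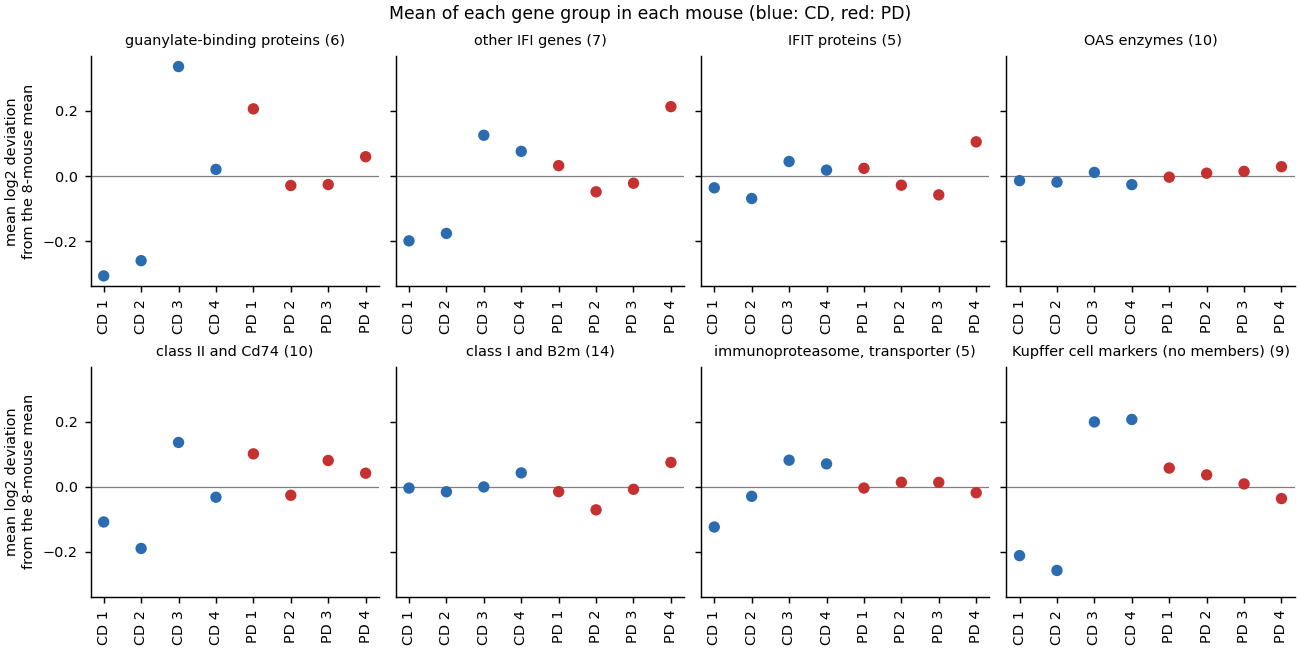
Average over each family of the log2 value minus its 8-mouse mean (vertical axis) in each mouse (horizontal axis, CD blue, PD red) for 7 families of members and for 9 Kupffer cell markers, which are no members. CD replicates 1 and 2 are lowest for the guanylate-binding proteins, class II and the Kupffer cell markers, and class I and OAS genes stay near 0.

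Markers of Kupffer cells and macrophages moved with these mice as a mean, though not each of them did. Of 10 listed markers 9 were measured, and their mean deviation was −0.21 and −0.26 in CD replicates 1 and 2 and 0.20 and 0.21 in CD replicates 3 and 4, against −0.04 to 0.06 in PD mice. Their mean level ranged from 8.28 to 8.75 in CD and from 8.50 to 8.60 in PD mice. CD replicate 1 or 2 was the lowest mouse for 8 of the 9, and CD replicate 3 for 1. The highest mouse was CD replicate 3 for 4 markers, CD replicate 4 for 3, and CD replicate 1 and PD replicate 2 for 1 each. The receptor Csf1r was 9.77, 9.69, 10.38 and 10.38 in CD and 10.02, 9.96, 10.03 and 10.10 in PD mice. Unlike the markers, the guanylate-binding proteins and class II were near 0 in CD replicate 4, at 0.02 and −0.03. Markers of dendritic cells (7 of 8 measured, deviations from −0.04 to 0.07) and B cells (5 of 6, from −0.07 to 0.07) varied less. Like the guanylate-binding proteins and class II, markers of sinusoidal endothelial cells (6 of 6 measured) were highest in CD replicate 3. Their mean deviation was −0.10, −0.07, 0.16 and 0.00 in CD replicates 1 to 4 and −0.02, −0.11, 0.09 and 0.04 in PD replicates 1 to 4, and CD replicate 3 was the highest mouse for 5 of the 6. The part of any of these cell types in the values of the members was not tested.

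Covariation between mice was read for 15 relations, of 9 class II genes with Cd74 and of 6 guanylate-binding proteins with Irf1. They were chosen with the values known, and their p-values are two-sided exact permutation p-values over the 8 mice, adjusted over the 15. H2-Aa followed Cd74 with r = 0.94 (exact permutation p = 1.98e-04, adjusted p = 0.0026) and rho = 0.98 (exact permutation p = 3.97e-04, adjusted p = 0.00298). Leaving out the 2 mice farthest from the median of Cd74 gave r = 0.90, and taking out the diet means gave r = 0.93. H2-Ab1 had r = 0.94 and rho = 0.98, and H2-Eb1 had r = 0.91 and rho = 0.93 (exact permutation, adjusted p = 0.0026 and 0.00818 for r and 0.00298 and 0.0112 for rho). Without the 2 farthest mice these were r = 0.89 and 0.79. H2-DMa (r = 0.58), H2-Ob (0.09), H2-Eb2 (−0.33), H2-Oa (−0.49), H2-Ea (−0.58) and H2-DMb2 (−0.69) did not pass for r, with adjusted exact permutation p-values of 0.105 or more.

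With Irf1, r was 0.93 for Gbp6, 0.90 for Gbp2b, 0.89 for Gbp2 and 0.89 for Gbp3, with adjusted exact permutation p-values from 0.00818 to 0.0109. By rank, Gbp3 had rho = 0.88 (adjusted exact permutation p = 0.0272), while Gbp6 (rho = 0.81), Gbp2b (0.79) and Gbp2 (0.79) had an adjusted exact permutation p of 0.0524. Without the 2 mice farthest from the median of Irf1 these 4 genes had r between 0.66 and 0.89. Gbp8 (r = 0.75, adjusted exact permutation p = 0.0716) and Gbp7 (r = 0.59, adjusted exact permutation p = 0.167) did not pass. Gbp7 departed mainly in PD replicate 2, the highest mouse for Gbp7 and the lowest PD mouse for Irf1.

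**Figure D5:**
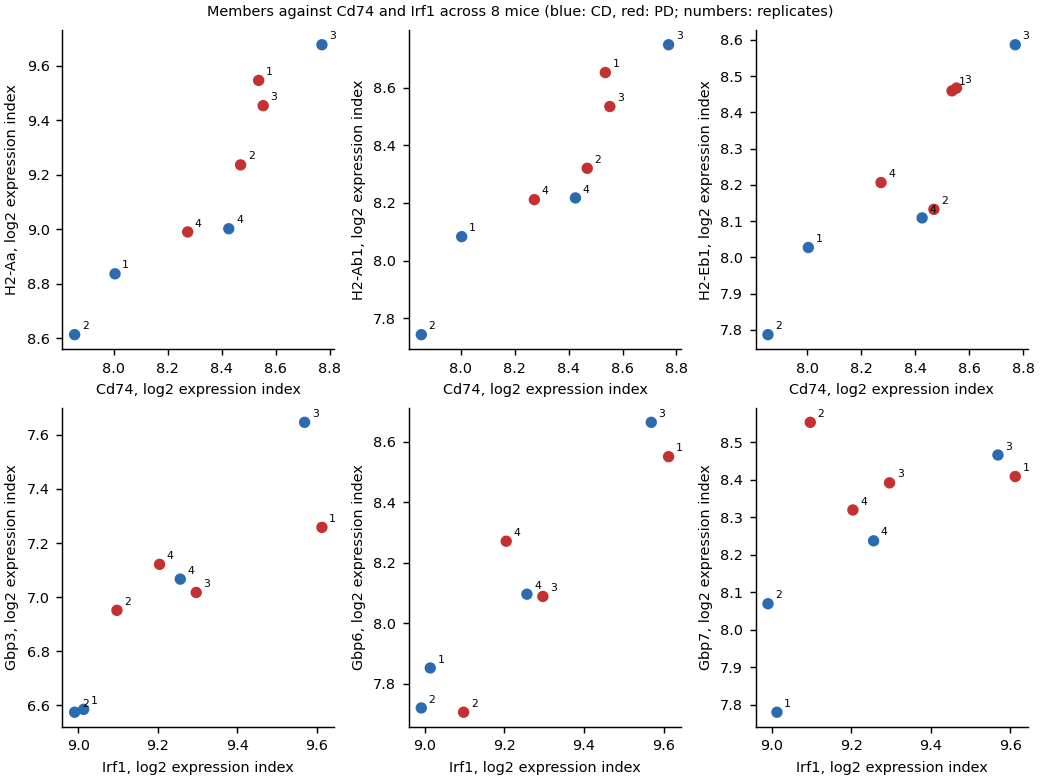
Log2 expression index of 3 class II genes against Cd74 (top) and of 3 guanylate-binding proteins against Irf1 (bottom) in 8 mice, CD blue and PD red, with replicate numbers. In the top row and for Gbp3 and Gbp6 the mice lie along a rising line with both diets on it, and for Gbp7 PD replicate 2 lies high at a low Irf1 value.

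Because CD replicate 3 stood at the top of many members, the comparison was also made without it. The rank product then called 7 members as higher in PD mice and 0 as lower, where 0.599% of all genes were called as higher and 0.104% as lower. These were H2-Ab1 (0.42), Cd74 (0.36), H2-Eb1 (0.34), H2-Aa (0.49), Gbp7 (0.39), Gbp3 (0.35) and Ifi27l2a (0.41). CD replicate 3 was the highest CD mouse in each of the 7, so leaving it out had to raise their differences. As the mouse was chosen for its high values in these members, the 7 calls are a description and no test of the diet. Limma gave 13 members an unadjusted p under 0.05, where 6.81% of all genes had one, and 0 passed the adjusted threshold (lowest adjusted p = 0.839). Without CD replicate 1 the rank product called 0 members, where 0.209% of all genes were called as higher and 0.0495% as lower, and limma gave 1 member an unadjusted p under 0.05, against 4.13% of all genes. Without CD replicate 2 it called Irf2bp2 alone, as lower, where 0.264% and 0.148% of all genes were called as higher and lower, and limma gave 0 members an unadjusted p under 0.05, against 3.2% of all genes. With CD replicate 4 left out Ifi27l2a (0.32) and H2-Aa were called as higher and Irf2bp2 as lower, against 0.407% and 0.209% of all genes. The calls in this gene group differed with the CD mouse that was left out.

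The rest of the pathway was read from lists of genes that are no members. Of 13 ligands, receptors, kinases and inhibitors 9 were higher, with a median of 0.02. Only Socs3, the feedback inhibitor of cytokine receptors, was called, lower in PD mice (FDR = 0.097, rank product), and it was 7.72, 8.15, 9.39 and 8.55 in CD and 9.47, 8.40, 7.42 and 7.66 in PD mice. The highest PD mouse was above every CD mouse, and the difference was −0.21 (standard error 0.44). The interferon genes Ifnb1 (0.05) and Ifng (0.06) were not called. Of 8 sensors and adaptors 4 were higher (median 0.03), and of 21 other interferon-induced genes 15 were higher (median 0.03), with 0 called. Cxcl9, a chemokine induced by interferon gamma, was 7.05, 7.12, 8.22 and 7.79 in CD and 7.62, 7.85, 7.76 and 7.97 in PD mice. It again had CD replicates 1 and 2 lowest and CD replicate 3 highest, with a difference of 0.25. Of 17 other antigen presentation genes 10 were higher (median 0.01), with 0 called. Calr, the chaperone calreticulin of the peptide-loading complex, was 12.04, 12.01, 12.17 and 12.08 in CD and 11.93, 11.88, 12.003 and 11.95 in PD mice. The highest PD value was below the lowest CD value, with a difference of −0.13 (standard error 0.05, limma, unadjusted p = 0.022, adjusted p = 0.998), and it was the only gene of this list with separated groups. Nlrc5, the activator of class I genes, differed by 0.19 and Ciita, the activator of class II genes, by 0.07, and neither was called.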

How the data were processed

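The authors deposited log2 values of a model-based expression index for 8 Affymetrix mouse arrays, 1 per mouse, made with R 2.7.2 per the submitters' processing notes. No value was changed before testing. How the authors normalized one array to another is not stated in the paper or the labels, and arrays carry no read depth. The 64 control probe sets were dropped, which left 45037. The rank product over 16 pairs of arrays with 1000 permutations, in the manner of the study, was coded in Python 3.11.15 (scipy 1.17.1, numpy 2.4.6, pandas 2.3.3), and limma 3.58.1 ran in R 4.3.3, both on all probe sets and both tested on simulated data. Single genes had two-sided exact permutation tests, whose smallest p with 4 against 4 mice is 0.0286. The labels call the mice biological replicates.

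The members and lists were chosen with earlier results of these data known. Named genes were those called, separated between diets, at an unadjusted limma p under 0.05, the 5 largest in difference and in spread per class, and a core list. Further family members, list genes and the 15 relations were chosen after their values were seen. Alternatives were an FDR threshold of 0.05, quantile normalization, median centring, filters on dim and suffixed probe sets, any or the mean of all probe sets, the replicate block, limma with a trend, the methods' t-test and leaving out each mouse. A second set of permutations and the shares of all genes called in the other settings were added after seeing the data.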

Additional observations from a re-analysis of the deposited data

Results flagged for a closer look

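In groups of 4 mice, a single mouse stood apart from the other 3 in 5 of the 78 groups of values examined (39 named genes in both diets), and chance alone sets a mouse apart in about 1 of 20 groups. H2-Ea in PD replicate 4 was 9.45, while the 3 others of its diet lay between 8.76 and 8.88. Ifi27l2a was 7.89 in PD replicate 4 against 7.54 to 7.58. Ifitm3 was 12.51 in PD replicate 1 against 12.55 to 12.56. Isg20l2 was 8.16 in CD replicate 4 against 8.34 to 8.36, and Psmb9 was 9.67 in PD replicate 3 against 9.44 to 9.47.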

How the results depend on the processing

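The 2 members called by the rank product were called again with array median centring and with a second set of permutations (FDR of H2-Aa 0.0986), and 2 were counted when any probe set of a gene could be called. Only Irf2bp2, 1 member, was called at an FDR under 0.05, after quantile normalization, with dim probe sets left out, with suffixed probe sets left out, and with the replicate block, settings in which 0.379% to 0.665% of all genes were called. With suffixed probe sets left out 68 of the 89 members had a value, and H2-Aa, without one, could not be called. The labels name no pairs of mice. Same-number correlations of the deviations lay between −0.06 and 0.00, within the range of −0.19 to 0.16 for other numbers. These correlations showed no pairing by replicate number but cannot exclude one. With the replicate block limma gave 4 members an unadjusted p under 0.05, Gbp7, Ifit2, Irf2bp2 and Isg20l2, where 4.52% of all genes had one. With 1 mouse left out, the rank product called 0 to 7 members, limma gave 0 to 13 an unadjusted p under 0.05, the interferon median lay between −0.01 and 0.03 and the antigen presentation median between −0.01 and 0.04. The methods' t-test gave 2 members (H2-M3 and Oasl1) an unadjusted p under 0.05, and 0 passed after Benjamini-Hochberg adjustment. The share of all genes was not counted for this t-test. Over the 39 named genes 532 values were recomputed, of which 11 lost a call and 7 gained one. The other 514 showed neither change. They include the values with a gene's probe sets averaged, where no rank product call was made, so those could neither keep nor lose one. The difference changed sign in 50 of the 532 values, in 19 genes that were not called, 46 of them with 1 mouse left out, and 0 called differences changed sign. The number of mice limits the precision, 14 of the 89 members were among the dimmest 25% of probe sets, 27 sat on suffixed probe sets, and 14 of the 29 members with several probe sets had differences of both signs.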
